A study of Caenorhabditis elegans with 12 samples.

Results

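The ttr genes of Caenorhabditis elegans encode the transthyretin-like family. Members were all rows of the count files whose sequence name maps to a gene symbol made of ttr and a number, which gave 59 of 20389 rows, 58 of them protein-coding genes and 1 a pseudogene, ttr-4. They were described over 4 groups of 3 libraries each, all from young adults that carried fog-1(q253)ts and were kept at 25 °C. The groups were dissected XO gonads, dissected XX gonads, whole XO worms and whole XX worms. fog-1 is needed for sperm fate, and in this mutant the germ cells of XO animals, which have a male body, and of XX animals, which have a hermaphrodite body, make oocytes. No group without the fog-1 allele was analysed here, so all values come from feminized animals. A gonad sample held at least 200 gonads and a whole worm sample at least 600 animals. The labels did not state whether replicates were separate cultures, so the p-values rest on differences among samples of a group that may be technical only.

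Transthyretin-like proteins are mostly small and secreted, and they are distantly related to vertebrate transthyretin, a carrier of thyroid hormone and a partner of the retinol carrier. The family is greatly expanded in nematodes, and for most members the function is unknown. TTR-52 is the exception studied in most detail. It is secreted, binds phosphatidylserine exposed on dying cells and links it to the engulfment receptor CED-1. It also takes part in the fusion and regrowth of cut axons. TTR-33 has been linked to the protection of dopaminergic neurons from oxidative damage. Cell death is frequent in the C. elegans oocyte-making germline, where sheath cells of the somatic gonad take up the corpses.

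By the WBcel235 annotation, 22 members lay on chromosome V, 12 on X, 10 each on III and IV, 3 on I and 2 on II. Their transcripts were short, with a median exonic length of 569 bases (range 364 to 1415), against a median of 1188.5 bases over all protein-coding genes in the files.

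Libraries held 7912618 to 16140259 gene counts. Levels are given as CPM, read counts relative to library size, scaled by the trimmed mean of M-values within gonads or within whole worms. The counts of fog-1 itself do not check the labels, since a temperature-sensitive allele need not change the amount of mRNA, and fog-1 averaged 612 CPM in XO gonads, 42.8 CPM in XX gonads, 302 CPM in XO whole worms and 30.4 CPM in XX whole worms. The labelled tissue and body sex were checked with marker lists: all 8 germline genes were higher in gonads than in whole worms for both karyotypes, and all 4 male neuron genes were higher in XO than in XX whole worms, with sums of 50.1 to 51.6 CPM in XO and 0.512 to 1.11 CPM in XX whole worms. The 5 sperm genes summed to 1.2 to 3.25 CPM in XO gonads, against 0.076 to 0.51 CPM in XX gonads. Replicate 1 of the XX gonads stood apart from the other XX gonads: its log2 levels deviated by a median of 0.24 over genes with under 1 kb of exons, by -1.22 over genes with over 4 kb, and by 0.38 over the 16 ttr genes tested in gonads. The ttr calls, the engulfment genes and the marker lists in gonads are therefore also given without it, and for the lists this was chosen after seeing the data.

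The ttr transcripts were a whole-body signal much more than a gonad signal. They took 0.00951% ± 0.00094 of gene counts in XO gonads, 0.0182% ± 0.00304 in XX gonads, 0.19% ± 0.00922 in XO whole worms and 0.164% ± 0.00325 in XX whole worms (SD, n = 3 each). The share in XX gonads lay above that in XO gonads in every library, 0.0164% to 0.0218% against 0.00867% to 0.0105%. The highest of these, 0.0218%, was that of XX gonad replicate 1. Of a summed 183 CPM in XX gonads ttr-51 alone held 61.7 CPM, and of 94.4 CPM in XO gonads it held 6.64 CPM. The share was higher in XO than in XX whole worms only on raw library size, and with scaled library sizes the values were 0.175% in XO and 0.178% in XX whole worms.

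Most members were detected in whole worms and few in gonads. At a mean of 1 CPM or more there were 12 members in XO gonads, 14 in XX gonads, 41 in XO whole worms and 41 in XX whole worms. At 100 CPM or more there were 8 members in XO whole worms and 6 in XX whole worms, and none in either group of gonads. The median member stood at 0.112 CPM in XO gonads, 0.106 CPM in XX gonads, 5.34 CPM in XO whole worms and 5.39 CPM in XX whole worms.

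**Figure D1:**
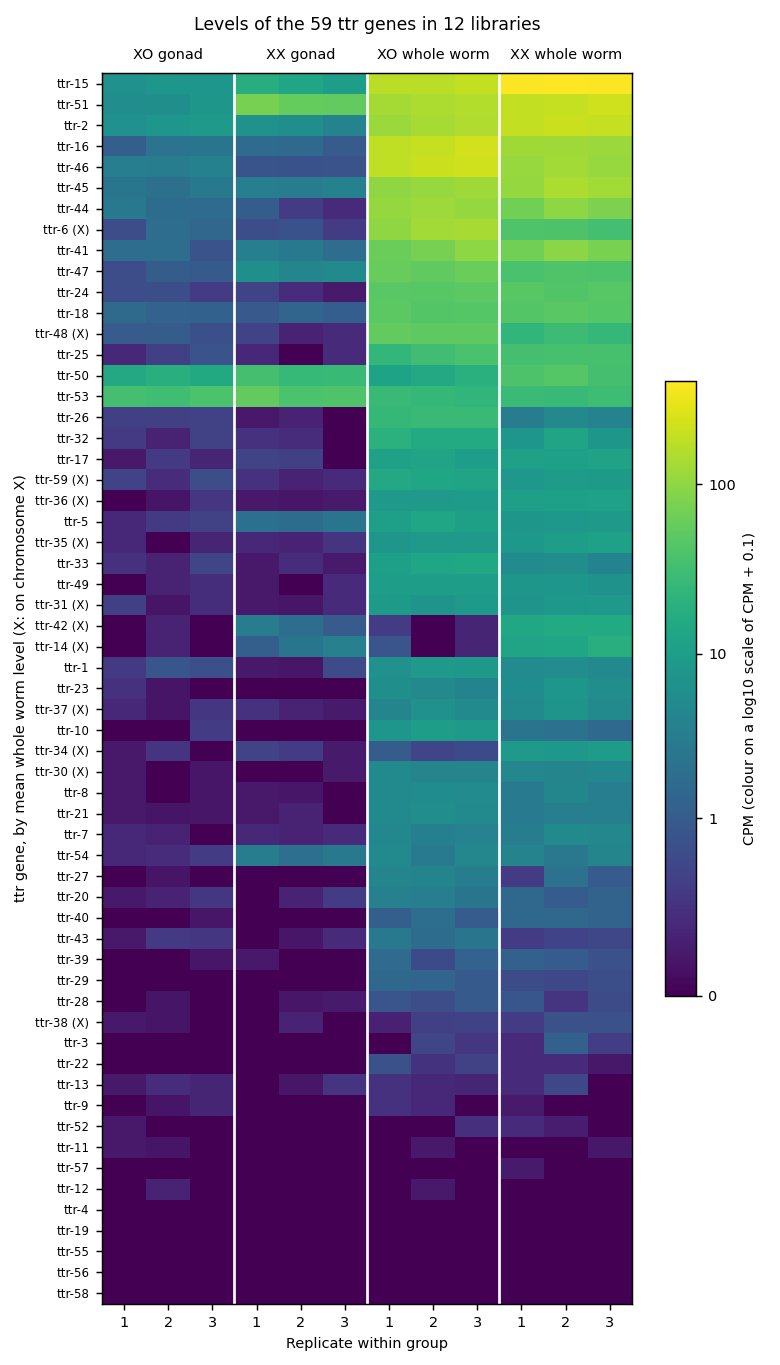
Levels of the 59 ttr genes (rows, ordered by mean whole worm level) in the 12 libraries (columns, by group and replicate), with colour on a log10 scale of CPM + 0.1. The upper rows are bright in all whole worm libraries and dark in gonads, ttr-53 and ttr-50 are of like brightness in both tissues, and the 5 bottom rows had 0 counts in every library.

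A tail of the family was silent or nearly so in these samples. The members ttr-4, ttr-19, ttr-55, ttr-56 and ttr-58 had 0 counts in all 12 libraries, and ttr-9, ttr-11, ttr-12, ttr-52 and ttr-57 had 10 or fewer counts over all of them. The exonic length of ttr-4 overlaps exons of cbp-3 on the opposite strand by 100%. The strand setting of the counting is not known, so 0 counts of ttr-4 cannot be read as silence. ttr-52, the engulfment ligand, had 1, 0 and 0 counts in XO gonads, against 0, 0 and 0 in XX gonads. It had 0, 0 and 3 counts in XO whole worms and 2, 1 and 0 in XX whole worms. No difference in ttr-52 was detectable at this depth. With ttr-3, ttr-13, ttr-22 and ttr-38, 14 members were removed by the filter on low counts in every comparison, and 45 were tested in at least 1. With no filter ttr-3, ttr-22 and ttr-38 were called lower in gonads than in whole worms for both karyotypes, with edgeR adjusted p from 0.000765 to 0.0462.

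Per kilobase of exon, the leading members differed between the groups. In XO gonads ttr-53 led with 49.2 CPM per kb, followed by ttr-50 with 17.7, ttr-2 with 15.4, ttr-51 with 13.8 and ttr-15 with 12. In XX gonads ttr-51 led with 128 CPM per kb, ahead of ttr-53 with 63.4, ttr-50 with 31.9 and ttr-15 with 22.6. A gonad thus drew most of its ttr signal from few genes: the 3 highest members held 62.3% of the family's CPM in XO gonads, against 74.1% in XX gonads. In XO whole worms ttr-16 stood at 394 CPM per kb, above ttr-46 with 305, ttr-51 with 299, ttr-15 with 289 and ttr-2 with 269. In XX whole worms ttr-15 stood at 641 CPM per kb, above ttr-51 with 417, ttr-2 with 400 and ttr-16 with 234. Ranked by CPM without length, the top 3 members held 33.2% of the family's CPM in XO and 44.3% in XX whole worms. They were ttr-46, ttr-16 and ttr-15 in XO, and ttr-15, ttr-51 and ttr-2 in XX. Neighbours in these orders often overlapped in their libraries: ttr-46 had 181, 208 and 220 CPM in XO whole worms and ttr-16 had 183, 197 and 228.

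Whole XO worms differed from whole XX worms in 27 of the 45 ttr genes tested, where 53.4% of all genes tested differed. At an adjusted p under 0.05 (edgeR, quasi-likelihood), 20 members were higher (44.4%) and 7 lower (15.6%), where 29.2% of all 12259 genes tested were higher and 24.2% lower. At a change of at least 2-fold the counts were 9 higher and 5 lower, against 16.5% and 8.62% of all genes. The median log2 fold change was 0.21 over the members and 0.02 over all genes tested. The libraries of the groups did not overlap, with XO above, for 21 members, and with XO below for 9, against 32.9% and 28.7% of all genes. In bulk samples, fewer cells of a type and less RNA per cell cannot be told apart.

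**Figure D2:**
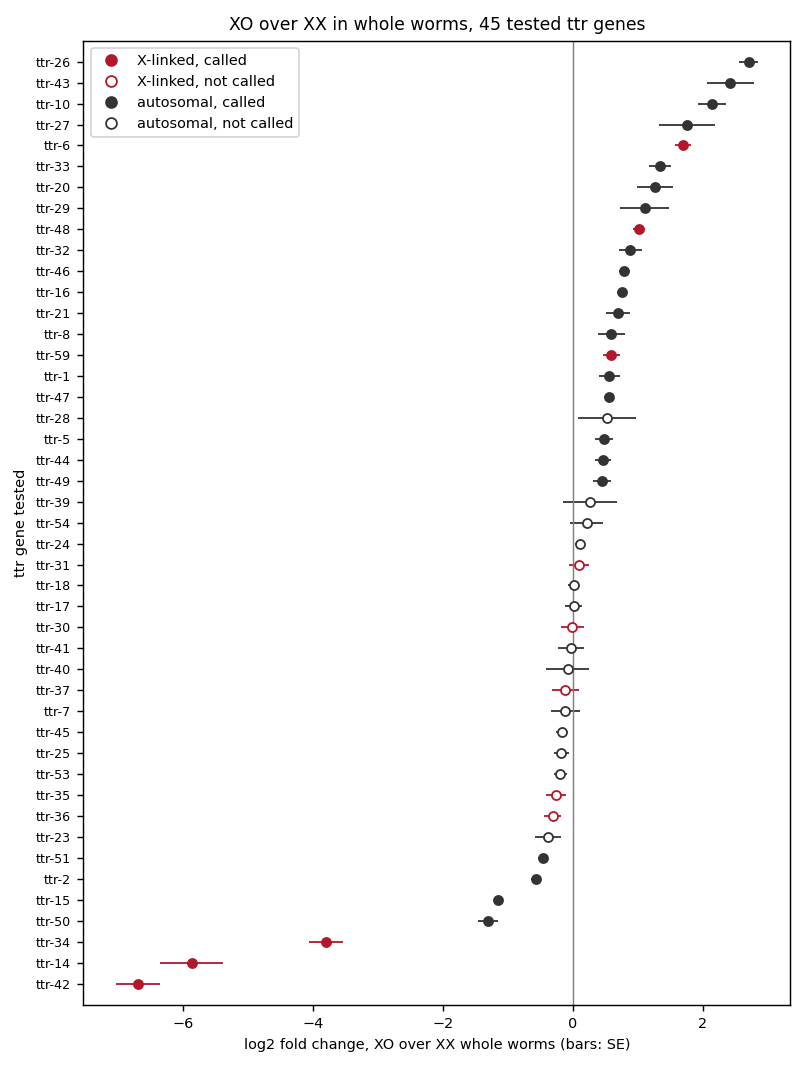
Log2 fold change of XO over XX whole worms (points, bars are SE) for the 45 ttr genes tested, ordered by value, with X-linked genes in red and filled points for adjusted p under 0.05. The values run from 2.70 for ttr-26 to -6.70 for ttr-42, and the 3 lowest are X-linked.

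The largest increase was in ttr-26, an autosomal gene on chromosome V with no known function. It had 24.8, 27.6 and 27.4 CPM in XO whole worms and 3.23, 4.86 and 4.18 CPM in XX whole worms. The groups were far apart, with a log2 fold change of 2.70 (SE 0.15, 6.51-fold, edgeR adjusted p = 2.41e-09). ttr-10, also on V, averaged 8.79 ± 1.38 CPM in XO whole worms, with 7.63 as its lowest value, and had 2.32, 2.13 and 1.6 CPM in XX whole worms. All XO libraries of ttr-10 were above all XX libraries, at a log2 fold change of 2.14 (SE 0.21, edgeR adjusted p = 1.29e-06). Of the lower-level members, ttr-43 was higher by 2.42 (SE 0.36, edgeR adjusted p = 6.49e-05) at 2.31 ± 0.484 CPM in XO and 0.415 ± 0.0783 CPM in XX whole worms, and ttr-27 by 1.75 (SE 0.43, edgeR adjusted p = 0.0051), or by 2.48 without XX whole worm replicate 2.

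The neuroprotective ttr-33 was among the higher genes. It had 10.7, 13.3 and 14.5 CPM in XO whole worms and 5.56, 5.8 and 4.11 CPM in XX whole worms. No XX library reached the lowest XO library, and the log2 fold change was 1.34 (SE 0.17, 2.54-fold, edgeR adjusted p = 1.98e-05). In gonads ttr-33 was close to the detection limit, with 12 counts over the 3 XO gonad libraries and 5 over the XX gonad libraries, and it was not tested there. An annotated exon of ttr-33 shares 42 bases, 7.14% of its exonic length, with txt-5 on the same strand.

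Members at high levels also rose. The X-linked ttr-6 had 101, 128 and 136 CPM in XO whole worms and 40.6, 40 and 33.3 CPM in XX whole worms, and was higher by 1.69 on the log2 scale (SE 0.12, edgeR adjusted p = 8.9e-07). The X-linked ttr-48 had 54, 51.6 and 51.1 CPM in XO and 23.5, 29.2 and 25.1 CPM in XX whole worms (log2 fold change 1.01, SE 0.09, edgeR adjusted p = 4.71e-07). Both X-linked genes were thus higher in the animals with a single X, with no overlap between the groups. ttr-46 had 181, 208 and 220 CPM in XO and 112, 129 and 112 CPM in XX whole worms (log2 fold change 0.79, SE 0.08, edgeR adjusted p = 3.28e-06). ttr-16 had 183, 197 and 228 CPM in XO and 117 to 123 CPM in XX whole worms (log2 fold change 0.75, SE 0.07, edgeR adjusted p = 1.63e-06). ttr-32 had 20.3, 16.1 and 16 CPM in XO and 7.8, 12.5 and 8.07 CPM in XX whole worms (log2 fold change 0.88, SE 0.18, edgeR adjusted p = 0.00102). In each of these 3 autosomal genes the lowest XO library was above the highest XX library. The counts of ttr-16 are uncertain, because 40.7% of its exonic length overlaps exons of lin-3, the gene of an epidermal growth factor, on the opposite strand.

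The remaining higher members changed less or were lower in level. ttr-20 and ttr-29 were higher by 1.26 and 1.10 on the log2 scale, and ttr-1, ttr-5, ttr-8, ttr-21, ttr-44, ttr-47, ttr-49 and ttr-59 by 0.45 to 0.69. Some of these calls were narrow. ttr-29 was not called when any 1 whole worm library other than XO replicate 3 was left out (edgeR adjusted p 0.0566 to 0.0834). ttr-8 was not called without XO whole worm replicate 2 or 3 or XX whole worm replicate 1 or 3 (edgeR adjusted p 0.065 to 0.106). Leaving out XO whole worm replicate 2 also ended the calls of ttr-1 (edgeR adjusted p = 0.0613) and ttr-5 (0.0615), and leaving out XX whole worm replicate 3 that of ttr-49 (0.0694). DESeq2 did not call ttr-1, ttr-8, ttr-29 and ttr-49 and called the other 23 of the 27.

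The strongest differences between whole worms were drops in 3 X-linked genes. ttr-42 had 0.342, 0 and 0.135 CPM in XO whole worms, 5 counts in all, and 14.1, 16 and 15.9 CPM in XX whole worms, 586 counts. It was close to absent from XO worms, with a log2 fold change of -6.70 (SE 0.34, edgeR adjusted p = 1.2e-09). ttr-14 had 0.797, 0 and 0.135 CPM in XO whole worms, 9 counts, and 12.7, 13.7 and 18.9 CPM in XX whole worms, 585 counts. Its log2 fold change was -5.87 (SE 0.49, edgeR adjusted p = 7.97e-06), and no XO library came near an XX library. With so few XO counts the fitted size depends on single libraries: it was -7.56 for ttr-42 and -7.55 for ttr-14 without XO whole worm replicate 1, and -6.11 and -5.27 without XO whole worm replicate 2, with both genes called each time. ttr-34 kept a low level in XO whole worms, with 1.02, 0.465 and 0.539 CPM, against 8.88, 8.27 and 9.67 CPM in XX whole worms. It was lower by a log2 fold change of -3.80 (SE 0.26, edgeR adjusted p = 2.99e-08), again with no overlap.

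The X-linked members did not move as a block. Of 11 tested in whole worms, 3 were higher (ttr-6, ttr-48, ttr-59), 3 lower (ttr-14, ttr-34, ttr-42) and 5 not called (ttr-30, ttr-31, ttr-35, ttr-36, ttr-37), with a median log2 fold change of -0.12. Over all 1716 X-linked genes tested, 29.8% were higher and 42.1% lower, with a median of -0.16. Of the 34 autosomal members tested, 17 were higher and 4 lower, with a median of 0.46, where 29.2% of all 10372 autosomal genes tested were higher and 21.3% lower, with a median of 0.03.

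Several abundant autosomal members were lower in XO whole worms by smaller amounts. ttr-15, the highest member in XX whole worms, had 170, 169 and 190 CPM in XO and 386, 403 and 383 CPM in XX whole worms. The 2 groups were well separated (log2 fold change -1.15, SE 0.06, edgeR adjusted p = 2.44e-09). ttr-50 had 12.1, 15 and 19.5 CPM in XO and 39.2, 44.4 and 34.3 CPM in XX whole worms (log2 fold change -1.31, SE 0.16, edgeR adjusted p = 4.68e-05). ttr-2 had 117, 135 and 148 CPM in XO and 189, 210 and 197 CPM in XX whole worms (log2 fold change -0.57, SE 0.08, edgeR adjusted p = 4.97e-05). ttr-51 had 132, 145 and 155 CPM in XO and 190, 193 and 219 CPM in XX whole worms (log2 fold change -0.47, SE 0.07, edgeR adjusted p = 9.96e-05). In these genes every XO library was below every XX library.

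**Figure D3:**
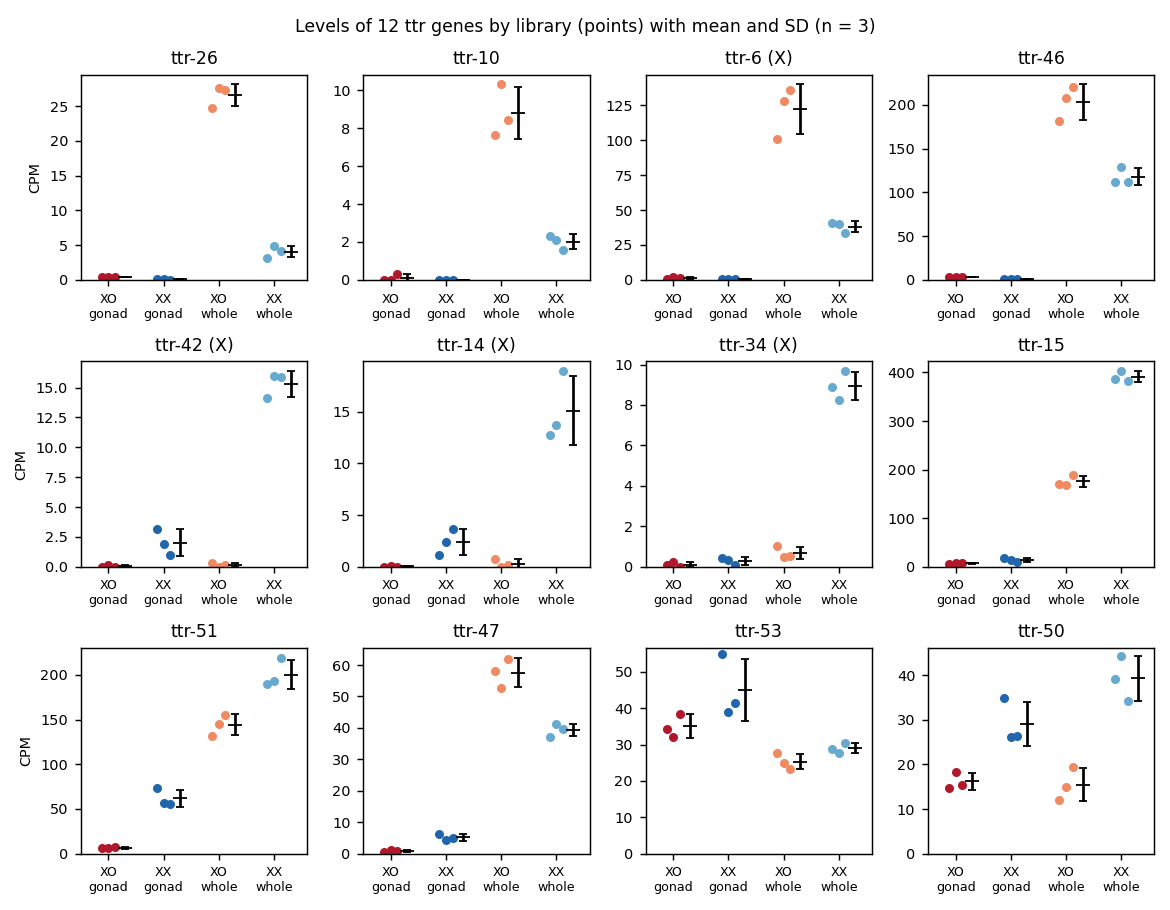
CPM of 12 ttr genes in each library (points), with the mean and SD of 3 libraries beside them, for XO gonads, XX gonads, XO whole worms and XX whole worms, each panel on its own axis from 0. ttr-26, ttr-10, ttr-6 and ttr-46 are highest in XO whole worms, ttr-42, ttr-14, ttr-34 and ttr-15 in XX whole worms, and ttr-53 is the only gene of the 12 whose gonad means are above both whole worm means.

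Marker transcripts of body tissues also differed between the whole worm groups. Intestine markers summed to 4630 to 5030 CPM in XO and 36000 to 47700 CPM in XX whole worms, a list that includes the yolk gene vit-2, and 1 of its 8 genes was higher and 4 lower, with none at 0. Of 8 neuron markers 7 were higher and 1 lower, with sums of 566 to 581 CPM in XO and 295 to 308 CPM in XX. Of 6 body wall muscle markers 5 were tested and 4 were higher, with sums of 12000 to 12800 CPM in XO and 5660 to 7270 CPM in XX, and hlh-1 was at 0 counts in both. All 4 tested pharynx markers and both tested glia markers were higher in XO, and 1 of 5 tested hypodermis and cuticle markers was higher and 1 lower. Of 3 coelomocyte markers 2 were higher. Germline markers were lower for 7 of 8 genes, with a median log2 fold change of -0.25 and sums of 6080 to 6220 CPM in XO and 7450 to 7620 CPM in XX. Of 7 hermaphrodite somatic gonad markers 2 were higher and 4 lower, with a median of -1.83 and sums of 61.5 to 65 CPM in XO and 109 to 125 CPM in XX. The part of these shifts in the ttr results was not tested.

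In gonads, more of the few ttr genes with enough reads were called lower in XO than higher. Of 16 members tested, 2 were higher and 8 lower, where 8.07% of all 8558 genes tested were higher and 19.7% lower. The median log2 fold change was -0.84 over the 16 members and 0.02 over all genes tested. A member that passed the filter through XX gonads alone or through XO gonads alone had to differ. The lower members ttr-5, ttr-14, ttr-42 and ttr-54 had 13, 2, 2 and 10 counts over the XO gonad libraries. The counts of calls and the median therefore describe these 16 members and not the family. With all 12 libraries in 1 fit, ttr-6, ttr-26 and ttr-48 were also called higher, and ttr-45 and ttr-53 lower. Without XX gonad replicate 1 all 10 calls were kept, and the X-linked ttr-48 became an additional higher gene (log2 fold change 2.59, edgeR adjusted p = 0.00741).

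The clearest drop at a sizeable level was in ttr-51, the leading member in XX gonads. It had 5.85, 6.18 and 7.9 CPM in XO gonads, against 73.1, 56.6 and 55.3 CPM in XX gonads. The groups were apart by 9.26-fold (log2 fold change -3.21, SE 0.19, edgeR adjusted p = 6.46e-05). ttr-47 had 0.608, 1.06 and 0.937 CPM in XO gonads, against 6.23, 4.27 and 4.99 CPM in XX gonads (log2 fold change -2.54, SE 0.28, edgeR adjusted p = 0.000936). ttr-5 had 0.152, 0.312 and 0.402 CPM in XO gonads, against 1.98, 1.78 and 2.41 CPM in XX gonads (log2 fold change -2.77, SE 0.36, edgeR adjusted p = 0.00182). ttr-54 had 0.152, 0.187 and 0.335 CPM in XO gonads, against 3.12, 1.97 and 2.75 CPM in XX gonads (log2 fold change -3.47, SE 0.38, edgeR adjusted p = 0.000864). All 4 genes are autosomal, and no XO gonad library of any of them reached an XX gonad library. Annotated exons of ttr-51 and ttr-47 overlap JC8.7 and H14N18.4 on the opposite strand by 9.36% and 10.2% of their length.

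The X-linked ttr-14 and ttr-42 were as good as missing from XO gonads. ttr-14 had 2 counts over the 3 XO gonad libraries and 97 over the XX gonad libraries, a ratio of CPM of 0.0191 (95% interval 0.00228 to 0.0709, counting error only, edgeR adjusted p = 0.00484). ttr-42 had 2 counts in XO and 84 in XX gonads, a ratio of 0.0221 (95% interval 0.00263 to 0.0822, edgeR adjusted p = 0.00594). All XO counts of both genes came from replicate 2, and without that library both were still called (edgeR adjusted p = 0.0231 and 0.0256). These were the only X-linked members tested in gonads, where 81.4% of the 955 X-linked genes tested were lower in XO. Annotated exons of ttr-42 and ttr-14 overlap H01M10.1 and vap-2 on the opposite strand by 10.9% and 6.36% of their length.

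Smaller gonad drops were called for ttr-50 and ttr-15. ttr-50 had 14.8, 18.4 and 15.3 CPM in XO gonads, against 34.8, 26.2 and 26.4 CPM in XX gonads (log2 fold change -0.85, SE 0.16, edgeR adjusted p = 0.0105). Annotated exons of ttr-50 overlap rbm-17 on the opposite strand by 5.58% of their length. ttr-15 had 6.61, 7.62 and 7.63 CPM in XO gonads, against 17.7, 13.6 and 9.99 CPM in XX gonads (log2 fold change -0.92, SE 0.23, edgeR adjusted p = 0.0279). The call of ttr-15 was lost on leaving out XX gonad replicate 2 or any of the libraries of XO gonads (edgeR adjusted p 0.0784 to 0.0942), at log2 fold changes of -0.87 to -0.97.

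Only ttr-46 and ttr-44 were called higher in XO gonads. ttr-46 had 3.42, 3.19 and 3.75 CPM in XO gonads, against 0.76, 0.701 and 0.749 CPM in XX gonads, tight groups with a 4.65-fold difference (log2 fold change 2.22, SE 0.20, edgeR adjusted p = 0.000445). ttr-44 had 2.74, 1.81 and 1.74 CPM in XO gonads, against 1.06, 0.319 and 0.166 CPM in XX gonads (log2 fold change 2.0, SE 0.58, edgeR adjusted p = 0.0453). Its call was lost without any 1 gonad library other than XX replicate 1 (edgeR adjusted p 0.0995 to 0.153), and without XX replicate 1 its log2 fold change was 3.03. Of its exonic length 25% overlaps R11G10.3 on the opposite strand. The 6 members not called were ttr-2, ttr-16, ttr-18, ttr-41, ttr-45 and ttr-53, with log2 fold changes of 0.44, 0.42, 0.26, -0.83, -0.51 and -0.37.

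Transcripts of somatic markers also differed between XO and XX gonads. Of 7 hermaphrodite somatic gonad markers, 5 were tested and 4 were lower in XO gonads (lim-7, inx-8, ceh-18 and lag-2), with a median log2 fold change of -3.16, sums of 21.1 to 31.8 CPM in XO and 111 to 141 CPM in XX gonads, and none at 0. Of 6 body wall muscle markers 5 were tested and 4 were lower, with sums of 111 to 174 CPM in XO and 286 to 374 CPM in XX gonads, and hlh-1 at 0 in both. Intestine markers summed to 115 to 173 CPM in XO and 168 to 208 CPM in XX gonads, where 4 of 5 tested were higher and 1 lower, and hypodermis and cuticle markers to 300.0 to 311 CPM in XO and 194 to 226 CPM in XX gonads, where 3 of 4 tested were higher, rol-6 and bli-1 were at 0 in both and dpy-5 at 0 in XO. The 4 male seminal fluid and vas deferens markers summed to 29 to 53.9 CPM in XO and 0.892 to 1.16 CPM in XX gonads, where mab-23 was at 0. Of 8 neuron markers 6 were tested, 2 higher and 1 lower, with sums of 152 to 170 CPM in XO and 188 to 237 CPM in XX gonads. Without XX gonad replicate 1 the same counts were called for the somatic gonad, muscle, hypodermis and neuron lists, while 5 of 6 intestine and 2 of 2 seminal fluid and vas deferens markers tested were higher. Which cells of the dissected gonads these marker transcripts came from, those named muscle markers included, was not tested. Their part in the gonad results was not tested either.

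Set against whole worms of the same karyotype, nearly all members were lower in gonads. For XO, 41 of the 45 members tested were lower in gonads, 1 was higher and 3 were not called, where 50.3% of all 12528 genes tested were lower and 29.6% higher. For XX, 42 of 45 were lower, 1 was higher and 2 were not called, where 42.4% of all genes were lower and 28.5% higher. The median log2 fold change was -5.58 for XO and -5.26 for XX, against -0.83 and -0.32 over all genes, and with members at 0 counts in gonads placed at their bound it was -5.57 and -5.13. Genes low in gonads passed the filter through whole worms alone, so these counts and medians describe the members tested. Here all 12 libraries were scaled together, so a fold can differ slightly from the ratio of the CPM printed.

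Some members with moderate or high whole worm levels were near 0 in gonads. ttr-24 had 0.608, 0.625 and 0.335 CPM in XO gonads, against 47.8, 47.3 and 50.2 CPM in XO whole worms (log2 fold change -6.57, SE 0.23, edgeR adjusted p = 1.61e-10). It had 0.456, 0.191 and 0.0832 CPM in XX gonads and 47.1, 42.7 and 46 CPM in XX whole worms (log2 fold change -7.43, SE 0.26, edgeR adjusted p = 2.48e-10, and -8.15 without XX gonad replicate 1). The whole worm levels of ttr-24 differed by 0.10 on the log2 scale between XO and XX (edgeR adjusted p = 0.278), and the gonads of both held under 1 CPM. ttr-25 had 4 counts in XX gonads and 1353 in XX whole worms (log2 fold change -8.31, SE 0.42, edgeR adjusted p = 4.83e-09). ttr-23 had 0 counts in XX gonads and 244 in XX whole worms, at least 87.1-fold lower when the group's 3 libraries are set to the limit of 3 counts together. ttr-16 was lower in XO gonads than in XO whole worms by a log2 fold change of -6.75 (SE 0.25, edgeR adjusted p = 2.04e-10). ttr-8 had 2 counts in XO gonads, against 196 in XO whole worms, a ratio of 0.00845 (95% interval 0.00102 to 0.0309).

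ttr-53 was the exception, and ttr-50 came close to it. ttr-53 had 34.4, 32 and 38.5 CPM in XO gonads, against 27.6, 25 and 23.4 CPM in XO whole worms, and 54.9, 38.9 and 41.5 CPM in XX gonads and 28.9, 27.6 and 30.5 CPM in XX whole worms. Every gonad library was above every whole worm library of its karyotype. The log2 fold change was 0.41 in XO (SE 0.14, edgeR adjusted p = 0.0142) and 0.69 in XX (SE 0.14, edgeR adjusted p = 0.000572). The XO call was lost without XO gonad replicate 3 (edgeR adjusted p = 0.0533) or XO whole worm replicate 3 (0.0513), and under both other scalings and DESeq2. ttr-50 differed between gonads and whole worms by -0.01 in XO (SE 0.19, edgeR adjusted p = 0.949) and by -0.38 in XX (SE 0.18, edgeR adjusted p = 0.0787). In XX the call of ttr-50 appeared without XX gonad replicate 1 (log2 fold change -0.52, edgeR adjusted p = 0.00784) and with DESeq2 size factors (edgeR adjusted p = 0.0436). ttr-54 was not called in XX, with 2.61 ± 0.582 CPM in XX gonads and 3.65 ± 0.884 CPM in XX whole worms (log2 fold change -0.45, SE 0.27, edgeR adjusted p = 0.164), and was lower in XO gonads by -4.24 (SE 0.40, edgeR adjusted p = 7.88e-07). ttr-53 and ttr-54 are neighbours on chromosome IV.

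Muscle and intestine markers were also far lower in gonads. The sums over body wall muscle markers were 111 to 174 CPM in XO gonads, 12000 to 12800 CPM in XO whole worms, 286 to 374 CPM in XX gonads and 5660 to 7270 CPM in XX whole worms. All 8 intestine markers were lower in gonads for both karyotypes, with a median log2 fold change of -5.05 for XO and -6.96 for XX. Neuron markers were closer, with sums of 152 to 170 CPM in XO gonads, 566 to 581 CPM in XO whole worms, 188 to 237 CPM in XX gonads and 295 to 308 CPM in XX whole worms. All 8 were lower in gonads for XO, and for XX 6 were lower and 1 higher. Of 5 hypodermis and cuticle markers tested, 1 was higher in gonads for both karyotypes, and 4 were lower for XO and 3 for XX. The amount of body tissue carried along with the dissected gonads, and its part in the low ttr levels there, was not tested.

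The karyotype difference itself differed between gonads and whole worms for 6 members. In the interaction over all 12 libraries, positive means that log2 XO over XX in gonads minus that in whole worms was above 0. Of the 45 members tested, 2 were called positive (4.44%) and 4 negative (8.89%), against 2.96% and 14.1% of all 12528 genes tested. With upper quartile scaling the counts were 1 positive and 4 negative. ttr-46 was higher in XO in both tissues and more so in gonads (interaction 1.32 on the log2 scale, SE 0.18, edgeR adjusted p = 0.000232). ttr-2 had 6.54, 7.68 and 8.77 CPM in XO gonads, against 6.69, 6.24 and 3.99 CPM in XX gonads, which overlapped, while it was lower in XO whole worms (interaction 0.90, SE 0.24, edgeR adjusted p = 0.0195). The call of ttr-2 was lost without XO gonad replicate 3 (edgeR adjusted p = 0.0552) or XO whole worm replicate 1 (0.0502).

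In 2 genes, ttr-47 and ttr-5, XO was lower in gonads and higher in whole worms, as in 2.8% of the 8471 genes tested in both. ttr-47 had 58.2, 52.6 and 61.9 CPM in XO whole worms and 37.2, 41.2 and 39.5 CPM in XX whole worms, a rise of 0.55 on the log2 scale (SE 0.08, edgeR adjusted p = 6.36e-05). Its interaction was -3.20 (SE 0.25, edgeR adjusted p = 2.18e-06). ttr-5 had 10.8, 12.9 and 11 CPM in XO whole worms and 8.05, 8.19 and 8.63 CPM in XX whole worms, a rise of 0.48 (SE 0.14, edgeR adjusted p = 0.00854). Its interaction was -3.35 (SE 0.34, edgeR adjusted p = 1.88e-05). The other 2 interactions were those of ttr-54, at -3.79 (SE 0.51, edgeR adjusted p = 0.000174), and of ttr-51, at -2.85 (SE 0.20, edgeR adjusted p = 8.99e-07). ttr-51 was lower in XO in both tissues, by 9.26-fold in gonads and 1.39-fold in whole worms.

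Among the 16 members tested in both tissues, 5 were lower in XO in both (ttr-14, ttr-15, ttr-42, ttr-50 and ttr-51) and 2 higher in both (ttr-44 and ttr-46), where 12% of the 8471 genes tested in both were lower in both and 4.78% higher in both. The whole worm call of ttr-44 was lost with all 12 libraries in 1 fit (edgeR adjusted p = 0.119). The XO over XX contrasts of ttr-15 were -0.92 in gonads and -1.15 in whole worms, and those of ttr-50 were -0.85 in gonads and -1.31 in whole worms. For these 2 genes the interaction was 0.12 (SE 0.22, edgeR adjusted p = 0.772) and 0.36 (SE 0.26, edgeR adjusted p = 0.423). For ttr-42 and ttr-14, with 2 counts each in XO gonads, it was 1.36 (edgeR adjusted p = 0.715) and 0.30 (not called). At so few counts the SE of the interaction was not reliable and is left out.

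**Figure D4:**
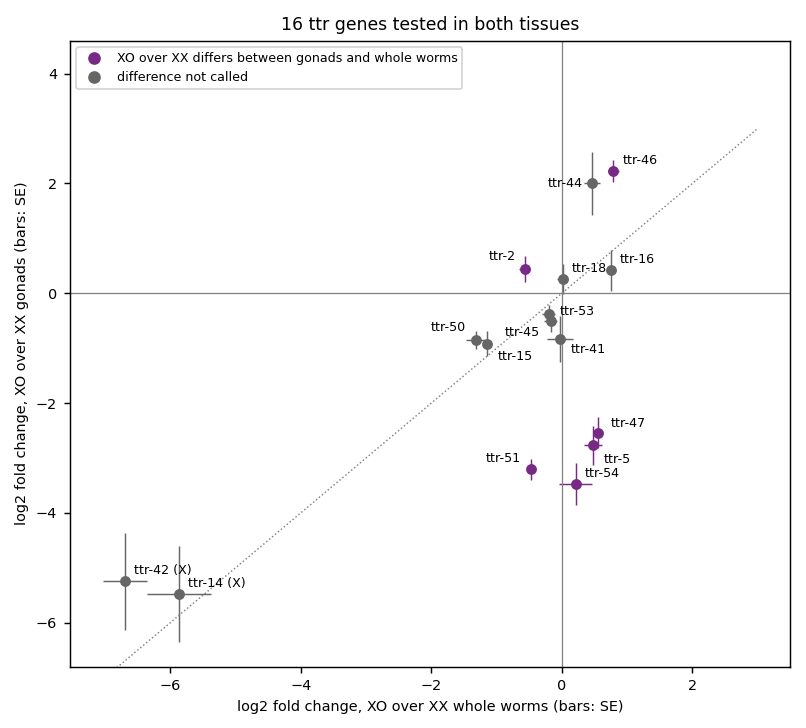
Log2 fold change of XO over XX in gonads (vertical) against whole worms (horizontal) for the 16 ttr genes tested in both, with SE bars, a dotted line of equal change and purple points where the difference between tissues was called. ttr-47 and ttr-5 lie right of 0 and below 0, ttr-46 lies above the line, and the values of ttr-14 and ttr-42 in XO gonads rest on 2 counts each.

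Members that lie side by side in the genome did not always share a pattern. With a gap of at most 10000 bases between neighbours on WBcel235, 30 members fell into 12 groups and 29 stood alone. In 10 of the groups at least 2 members were tested in whole worms. The widest split was in ttr-24, ttr-25 and ttr-26 on V, where ttr-26 was higher in XO whole worms by 2.70 on the log2 scale and ttr-24 and ttr-25 stood at 0.10 and -0.18 (edgeR adjusted p = 0.278 and 0.243). In the pair of ttr-2 and ttr-1 on III, ttr-2 was lower (-0.57) and ttr-1 higher (0.56) in XO whole worms. ttr-27 and ttr-29 were higher in XO by 1.75 and 1.10, and ttr-28 between them stood at 0.52 (SE 0.45, edgeR adjusted p = 0.359). ttr-8 and ttr-32 on III were both higher, at 0.59 and 0.88. Of the 10 members with 10 or fewer counts, 6 lay in 2 of these groups: ttr-55, ttr-56 and ttr-58 on I had 0 counts, and ttr-11, ttr-57 and ttr-12 on V had 4, 1 and 3 counts over 12 libraries.

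**Figure D5:**
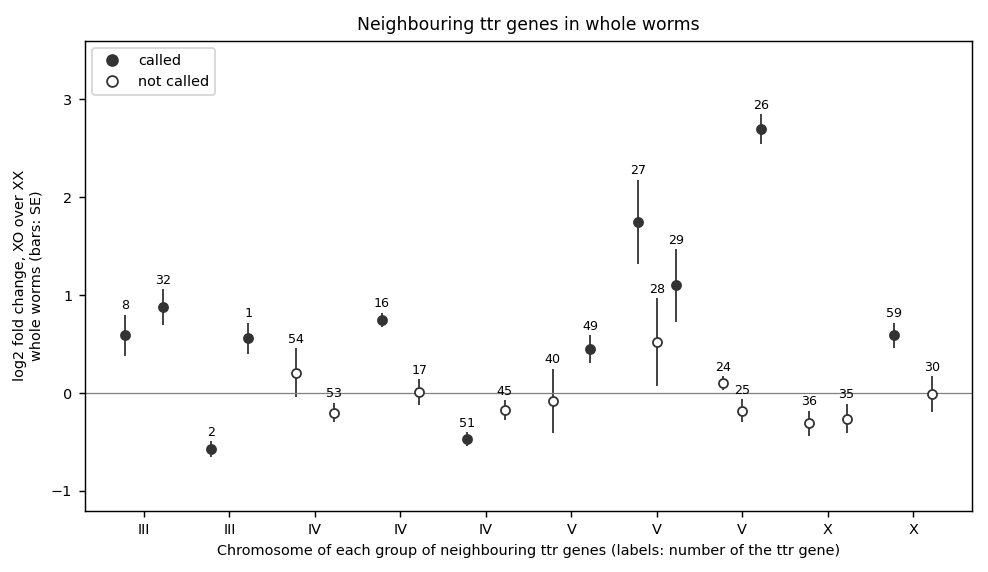
Log2 fold change of XO over XX whole worms (bars are SE) for ttr genes that lie within 10000 bases of another ttr gene, grouped by neighbourhood along the horizontal axis with the chromosome below, filled where adjusted p was under 0.05. ttr-26 at 2.70 stands apart from its neighbours ttr-24 and ttr-25, while ttr-36 and ttr-35 differ by 0.05.

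Corpse engulfment genes, a list chosen because of the role of TTR-52 in engulfment, were read at higher levels than ttr-52. All 16 genes of the list were tested. In gonads 3 were lower in XO and 13 were not called, with a median log2 fold change of 0.10. Of all genes tested in gonads 19.7% were lower, and of the X-linked genes 81.4%, and the list was not split by chromosome. Without XX gonad replicate 1, in which ced-5, ced-7, ced-12, ina-1 and unc-73 were far lower than in the other XX gonads, 4 were lower and 1 higher, with a median of 0.02. The genes gained were ina-1 (-0.85, edgeR adjusted p = 0.000648) and tat-1 (0.21, edgeR adjusted p = 0.0281). In whole worms 1 was higher, 3 were lower and 12 were not called, with a median of -0.03, where 29.2% of all genes were higher and 24.2% lower. ced-1, the engulfment receptor, averaged 157 ± 4.28 CPM in XO gonads, against 194 ± 26.5 CPM in XX gonads (log2 fold change -0.31, SE 0.12, edgeR adjusted p = 0.118), and 159 ± 3.47 CPM in XO and 162 ± 10.9 CPM in XX whole worms (log2 fold change -0.03, SE 0.06, edgeR adjusted p = 0.747). ced-7, a transporter that acts on both the dying and the engulfing cell, had 365, 246 and 259 CPM in XO gonads, against 13.8, 177 and 279 CPM in XX gonads, where the low value was that of XX replicate 1, and was not called (edgeR adjusted p = 0.505). psr-1, another receptor for phosphatidylserine, stood at log2 fold changes of 0.11 in gonads (edgeR adjusted p = 0.396) and -0.02 in whole worms (edgeR adjusted p = 0.831).

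The genes called in gonads were dyn-1, mig-2 and nrf-5. Their chromosomes are not given here, and 81.4% of the X-linked genes tested were lower in XO gonads. dyn-1, a dynamin that helps corpse-bearing vesicles mature, had 29.1, 26.9 and 22.3 CPM in XO gonads, against 150, 148 and 123 CPM in XX gonads (log2 fold change -2.43, SE 0.15, edgeR adjusted p = 8.61e-05), and was lower in XO whole worms by -0.82 (SE 0.06, edgeR adjusted p = 7.75e-08). mig-2, a Rac-like GTPase, had 1.9, 2.25 and 2.14 CPM in XO gonads, against 20.1, 17.8 and 14.6 CPM in XX gonads (log2 fold change -3.05, SE 0.18, edgeR adjusted p = 7.7e-05), and was lower in XO whole worms by -0.85 (SE 0.14, edgeR adjusted p = 0.000138). Neither gene overlapped between XO and XX gonads. nrf-5, a secreted lipid-binding protein that cooperates with TTR-52 in moving phosphatidylserine, had 0.988, 1.94 and 2.01 CPM in XO gonads, against 5.02, 3.63 and 4.33 CPM in XX gonads (log2 fold change -1.38, SE 0.31, edgeR adjusted p = 0.0177). In whole worms it had 44.2, 38.9 and 38.3 CPM in XO and 40.6, 43.8 and 45.7 CPM in XX, which overlapped (log2 fold change -0.11, edgeR adjusted p = 0.313). The integrin gene ina-1 was lower in XO whole worms by -0.39 (edgeR adjusted p = 0.000977) and unc-73, a Rac exchange factor, higher by 0.54 (edgeR adjusted p = 6.11e-06).

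The transthyretin-related enzyme R09H10.3, a homologue of 5-hydroxyisourate hydrolase outside the numbered family, had 0.38, 0.5 and 0.201 CPM in XO gonads, against 1.29, 1.47 and 1.58 CPM in XX gonads (log2 fold change -1.97, edgeR adjusted p = 0.00768, and -2.03 without XX gonad replicate 1). In whole worms it had 27.9, 21 and 29.3 CPM in XO and 28.3, 30.1 and 26.1 CPM in XX, which overlapped (log2 fold change -0.11). The related ZK697.8 was under 1 CPM in all groups. Like most ttr genes, R09H10.3 was lower in gonads than in whole worms, by -6.19 in XO and -4.22 in XX.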

How the data were processed

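Polyadenylated RNA of the 12 samples was sequenced as strand-marked libraries, per the labels' protocols. The deposited values are the authors' raw counts, whole numbers of reads for every gene, in a file per library. HTSeq, TopHat2 2.0.12, Cufflinks 2.2.0, SAMtools 1.2 and CASAVA 1.8 were used, per the submitters' processing notes, in roles those notes do not give. Build, annotation and strand setting are not given in the sources used here. Whether reads in overlaps of genes were counted for a gene or left out as ambiguous is therefore not known. Such overlaps matter here, as 18 ttr genes share exon bases with another gene, 3 of them over 20% or more of their exonic length. The 5 summary lines per file were left out, and reads with several places in the genome were 4.993% to 20.33% per library, so near-identical genes may be undercounted. Of 20389 rows, 19899 matched a gene of WBcel235 (Ensembl or RefSeq), used for names, chromosomes, lengths and neighbours only.

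Differences were tested on the counts with edgeR 4.0.16 under R 4.3.3, where the filter was filterByExpr (minimum count 10), scaling the trimmed mean of M-values (TMM), the 2-sided quasi-likelihood test robust, and p-values were adjusted after Benjamini and Hochberg over all genes tested, with 0.05 as the threshold. XO was compared with XX on the 6 libraries of a tissue, and tissues and the interaction on all 12. Standard errors (SE) of log2 fold changes came from the F statistic, so they are not reliable for members with very few counts. Alternatives were other scalings, DESeq2 1.42.0, no filter, a replicate block, other libraries in the fit and leaving out each library. Groups and replicate numbers came from the titles. Same-numbered libraries did not deviate together (correlations of -0.47 to 0.06), so numbers were not taken as pairs.

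The members and lists were chosen with earlier results of these data known. Library values were planned for the largest called changes per direction with groups that do not overlap, 8 in whole worms and 5 in gonads. They were also planned for the 3 largest per direction for tissues and interaction. All of these had a mean of at least 5 CPM. The 3 highest members per group, ttr-33 and ttr-52 were planned too. For ttr-8, ttr-16, ttr-23 and ttr-25 between tissues, and for ttr-33 in gonads, only totals or the fold change are given. The gonad totals of ttr-14 and ttr-42 and the gonad library values of ttr-44, ttr-46 and ttr-54 were added after their values were seen. Intervals and floors cover counting error only, since amplified reads are not separate molecules.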

Additional observations from a re-analysis of the deposited data

Results flagged for a closer look

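For 6 ttr genes the XO over XX difference in gonads differed from that in whole worms, by the interaction term of edgeR's quasi-likelihood fit over 12 libraries. The log2 XO over XX contrast in gonads minus that in whole worms was positive for ttr-46, at 1.32 (2.22 in gonads and 0.79 in whole worms), and for ttr-2, at 0.90 (0.44 in gonads and -0.57 in whole worms). It was negative for ttr-54, at -3.79 (-3.47 in gonads and 0.21 in whole worms), for ttr-5, at -3.35 (-2.77 in gonads and 0.48 in whole worms), for ttr-47, at -3.20 (-2.54 in gonads and 0.55 in whole worms), and for ttr-51, at -2.85 (-3.21 in gonads and -0.47 in whole worms). Of the 45 members tested 4.44% were called positive and 8.89% negative, and of all genes tested 2.96% and 14.1%.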

How the results depend on the processing

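Of 510 recomputed values of named genes, 493 kept their direction and side of the threshold, 15 lost the call and 2 turned: the uncalled interaction of ttr-33 (-0.34) ran from -0.98 to 0.30 with a library left out, and was 0.03 without XO gonad replicate 2 and 0.30 without XX gonad replicate 2. Apart from those of ttr-33, these values were chosen as called changes with a mean of at least 5 CPM, which favours stable calls. The gonad call of ttr-44 and the whole worm calls of ttr-1, ttr-5, ttr-8, ttr-29 and ttr-49 are not among them. In gonads, 2 members were higher, against 1 with upper quartile scaling, 3 with DESeq2 or no filter, 5 with all 12 libraries in 1 fit (8 lower became 10) and 1 to 3 with a library left out. The member higher in XO gonads than XO whole worms was lost (0) with DESeq2 size factors, upper quartile scaling and DESeq2, and 0 to 1 remained with a library left out. The interaction had 2 higher and 4 lower, against 1 and 4 with upper quartile scaling, 1 and 4 with no filter, and 1 to 3 higher with a library left out. With TMM scaled library sizes the ttr share was 0.175% in XO and 0.178% in XX whole worms, and on library size alone the median member of XX whole worms was at 4.96 CPM. Upper quartile scaling moved the median of all genes in gonads by -0.14, and DESeq2 size factors moved those of the tissue comparisons by -0.14 in XO and -0.13 in XX. In whole worms 20 members were higher, against 17 with all 12 libraries in 1 fit and 16 with DESeq2. With a library left out, 16 to 19 members were higher and 7 to 9 lower in whole worms, and 7 to 8 lower in gonads. The replicate block ended the gonad calls of ttr-15 (-0.88, edgeR adjusted p = 0.0938) and ttr-50 (-0.84, 0.0548) and no other call of a member. For the interaction no fit on other libraries was possible. The causes were not tested. Gonad libraries were as deep as whole worm libraries, and 47 members in XO gonads and 45 in XX gonads were under 1 CPM, where values rest on few counts.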
